A study of Mus musculus with 8 samples.

Results

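The serine/arginine-rich (SR) splicing factors Srsf1, Srsf2, Srsf3, Srsf4, Srsf5, Srsf6, Srsf7, Srsf10 and Srsf11 were followed across the 4 groups of a mouse heart microarray study. Their probe sets were taken as those to which the array annotation gives one of these 9 symbols, which found 31 of 45037 probe sets, for 8 of the 9 genes (18193 genes had a probe set in all). The transcript of Srsf7 was not analysed here, since no probe set carried its symbol, and this gene enters only the promoter counts below. A probe set is a group of short oligonucleotides on the array that reads 1 stretch of transcript sequence. The genes were chosen on how their probe sets differed between doxorubicin and saline hearts, so those differences, and any count of them past a threshold, are given as a description from which nothing is read. The comparisons between genotypes played no part in the choice and were tested.

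RNA from hearts of male mice aged 6 to 8 weeks was measured on 8 one-colour Affymetrix arrays, 2 biological replicates for each of 4 groups. The groups were MT-/- mice given doxorubicin (DOX, an anthracycline cancer drug that damages the heart), MT-/- mice given saline, MT+/+ mice given DOX and MT+/+ mice given saline. MT-/- mice are labelled as null for metallothioneins I and II, small metal-binding proteins, and MT+/+ mice as their wild type. DOX was a single dose of 15 mg/kg into the abdomen, saline controls received an equal volume, and hearts were collected on day 4. The sources used here do not say how the metallothionein genes were disrupted, which strain was used or whether animals were pooled.

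The metallothionein probe sets did not separate the genotypes in the direction of the labels. Mt1 had deposited intensities of 12549 and 12850 on the arrays labelled MT-/- DOX and 4667 and 5322 on those labelled MT-/- saline, against 6735 and 9285 with MT+/+ DOX and 3722 and 4034 with MT+/+ saline. Mt2 had 2218 and 2213 with MT-/- DOX, 968 and 1018 with MT-/- saline, 1210 and 2732 with MT+/+ DOX and 452 and 485 with MT+/+ saline. The sources used here do not say where these probes lie relative to the disrupted sequence, so they do not check the labels, and MT-/- below means an array labelled so. The median deposited intensity of an array was 80.1 to 87.5, and the highest trimmed mean was 8.08% above the lowest, so the arrays were quantile-normalized.

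SR proteins bind short sequences in exons through an RNA recognition motif and use a tail of repeated arginine and serine residues to recruit the spliceosome, which favours inclusion of the exon. SRPK and CLK kinases phosphorylate that tail and so set where in the nucleus the proteins act. Many SR genes carry a conserved exon with a premature stop, whose inclusion sends their own mRNA to nonsense-mediated decay, so different parts of 1 SR gene can give different amounts of transcript. In the mouse heart, deletion of Srsf1 disturbs splicing of Camk2d, and Srsf2 and Srsf10 are needed for normal heart muscle.

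The promoters of Srsf6 and Srsf5 are shown because these genes held the largest difference in each direction between DOX and saline among the 8 genes. Both windows are RefSeq sequence on GRCm38.p6, from 250 bases before to 50 bases after the transcript start, printed 5′ to 3′ on the plus strand, which is the strand of both genes. Capitals mark matches on either strand to the GC box (GGGCGG or CCGCCC), the glucocorticoid receptor half-site (AGAACA or TGTTCT) and the cAMP response element half-site (TGACG or CGTCA). No 2 of these matches overlap in the printed windows. The Srsf6 window is chr2:162931258-162931557 and the Srsf5 window is chr12:80945249-80945548.
Srsf6: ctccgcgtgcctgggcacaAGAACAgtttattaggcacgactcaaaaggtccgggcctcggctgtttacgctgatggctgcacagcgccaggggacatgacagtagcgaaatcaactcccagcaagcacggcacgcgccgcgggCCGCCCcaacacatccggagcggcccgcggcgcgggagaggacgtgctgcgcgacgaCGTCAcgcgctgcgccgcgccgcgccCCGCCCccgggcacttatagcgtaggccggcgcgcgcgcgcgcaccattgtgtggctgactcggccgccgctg
Srsf5: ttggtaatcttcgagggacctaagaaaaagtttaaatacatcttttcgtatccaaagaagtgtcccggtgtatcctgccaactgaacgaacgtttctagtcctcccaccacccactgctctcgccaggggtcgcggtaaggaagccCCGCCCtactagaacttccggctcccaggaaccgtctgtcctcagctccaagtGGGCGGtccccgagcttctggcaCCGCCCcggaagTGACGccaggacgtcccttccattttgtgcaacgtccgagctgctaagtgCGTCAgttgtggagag

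The Srsf6 window held 45 CpG and was 70% G or C, and the Srsf5 window held 20 CpG and was 56% G or C. Over 32851 RefSeq promoter windows of the same length the median was 7 CpG, with quartiles of 3 and 20. Srsf6 had 2 GC boxes, 1 glucocorticoid half-site and 1 cAMP half-site, and Srsf5 had 3 GC boxes and 2 cAMP half-sites. A GC box stood in a window of 8 of the 9 genes and in 35.7% of all windows. The cAMP half-site stood in 7 of the 9 genes and in 20.8% of all windows, and the glucocorticoid half-site in Srsf6 alone of the 9 and in 19% of all windows. CCAAT boxes (CCAAT or ATTGG) were in 4 of the 9 genes and 37.4% of windows, TATA boxes (TATAAA or TTTATA) in 2 and 13.6%, and the E-box CACGTG in 0 and 7.15%. The 9 genes had 12 windows, since Srsf4 and Srsf11 had more than 1, so counts of genes and shares of windows are unlike units. Of the 12 windows 11 held a GC box, 7 a cAMP half-site and 4 a CCAAT box. A TATA box was in 2, a glucocorticoid half-site in 1 and the E-box in 0.

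Srsf6, an SR protein with a pair of RNA recognition motifs that acts in exon choice of many transcripts, gave the widest contrast. Its probe set 1416720_at had intensities of 187 and 170 with MT-/- DOX and 1964 and 2340 with MT-/- saline. With MT+/+ DOX it had 205 and 164, against 1435 and 2254 with MT+/+ saline. All 4 DOX arrays lay far below all 4 saline arrays, in both genotypes. The difference, DOX minus saline on the log2(intensity + 16) scale after normalization, was -3.36 ± 0.15 averaged over the genotypes (SE of the limma fit, 2 arrays a group), which is 10.2-fold lower. It was -3.44 ± 0.21 in MT-/- and -3.27 ± 0.21 in MT+/+. These 2 differences rest on different arrays that were normalized together, and their SE pool the spread of all 4 groups. In whole tissue, fewer cells of a type and less RNA per cell cannot be told apart.

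The second Srsf6 probe set differed in the same direction by much less. 1448454_at had 567 and 423 with MT-/- DOX and 776 and 809 with MT-/- saline, and 451 and 446 with MT+/+ DOX against 622 and 709 with MT+/+ saline. Its DOX arrays did not overlap its saline arrays, and the log2 difference averaged over the genotypes was -0.63 ± 0.12.

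On the other 2 Srsf6 probe sets the DOX and saline arrays overlapped when both genotypes were pooled. Within MT+/+ alone those of 1416721_s_at did not overlap, and the DOX arrays were the higher. 1447898_s_at had 479 and 536 with MT-/- DOX, 424 and 532 with MT-/- saline, 503 and 577 with MT+/+ DOX and 497 and 561 with MT+/+ saline, a log2 difference of 0.05 ± 0.10. 1416721_s_at had 249 and 341 with MT-/- DOX, 262 and 312 with MT-/- saline, 285 and 272 with MT+/+ DOX and 192 and 241 with MT+/+ saline, a log2 difference of 0.18 ± 0.12. Thus 2 of the 4 Srsf6 probe sets were lower after DOX and 2 were not. The ending _s_at marks probes shared by several transcripts, which may belong to different genes, so these 2 are less certain to read Srsf6 alone. All of them but 1447898_s_at were designed from 1 sequence record, and the exons that each probe set matches are not analysed here.

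**Figure D1:**
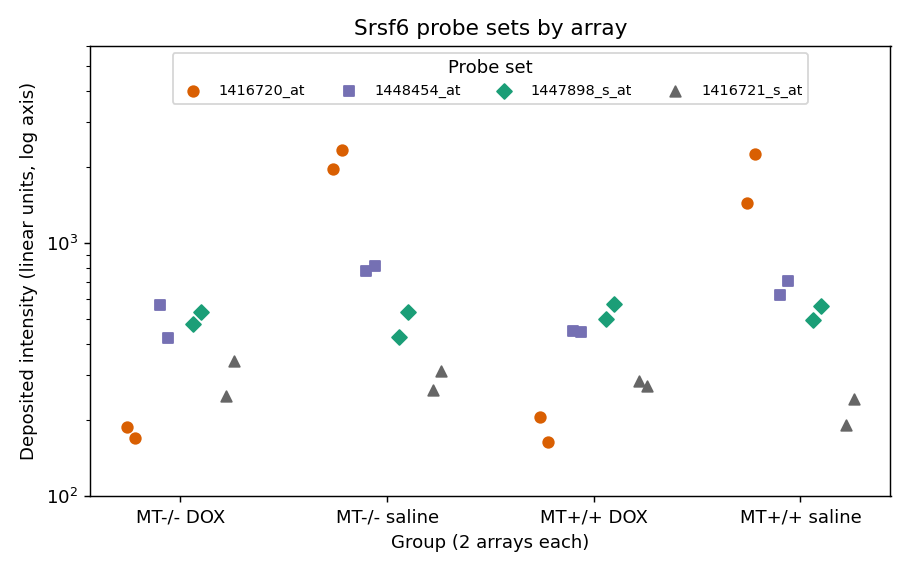
Deposited intensity (linear units, log axis) of the 4 Srsf6 probe sets on each of the 8 arrays, by group, 1 point an array. For 1416720_at the DOX arrays sit between 164 and 205 and the saline arrays between 1435 and 2340. With both genotypes pooled, 1447898_s_at and 1416721_s_at overlap between DOX and saline.

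The disagreement within Srsf6 was in view when these genes were chosen and is given as a description. Its 4 probe sets spanned 3.54 log2 units in their DOX minus saline difference. The median span was 0.312 over the 740 genes with at least 4 tested probe sets, and 0.166 over the 5300 genes with at least 2. The deposited intensity of 1416720_at over that of 1448454_at on the same array was 0.331 and 0.403 with MT-/- DOX and 2.53 and 2.89 with MT-/- saline. It was 0.455 and 0.368 with MT+/+ DOX and 2.31 and 3.18 with MT+/+ saline. The ratio was lower on every DOX array than on every saline array, and since levels of different probe sets are not on 1 scale, a ratio of 1 has no meaning of its own.

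The genes whose profile over the 8 arrays was closest to that of 1416720_at were Col3a1, Alas2, Nrep, Aplnr and Hbb-b2. Likeness was measured as the root mean square difference of mean-centred log2 values, which was 0.412 for Col3a1, 0.421 for Alas2, 0.421 for Nrep, 0.459 for Aplnr and 0.510 for Hbb-b2, against a median of 1.69 over 13007 genes. Col3a1, a fibroblast collagen, had 492 and 175 with MT-/- DOX, 4136 and 4671 with MT-/- saline, 477 and 428 with MT+/+ DOX and 3473 and 3643 with MT+/+ saline. Alas2, an enzyme of heme synthesis in red cell precursors, had 34.3 and 36.9 with MT-/- DOX, 821 and 1206 with MT-/- saline, 44.2 and 32.7 with MT+/+ DOX and 345 and 1085 with MT+/+ saline. The genes were picked for likeness to 1416720_at, so low values on all 4 DOX arrays follow from that choice. Nothing is read from them.

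Markers of several cell types were lower on DOX arrays, and these markers include Col3a1, Alas2 and Hbb-b2, named above. Beside the counts below, 14.8% of all 13008 tested genes passed for DOX averaged over the genotypes in limma. Of all genes 6.98% were higher and 7.81% lower. Summed deposited intensity of 7 fibroblast markers was 9879 to 11413 on DOX arrays and 15792 to 19914 on saline arrays, and 5 of the 7 passed the test as lower. All 7 macrophage markers were lower, with sums of 4239 to 5839 on DOX arrays and 8079 to 10156 on saline arrays. The sum of 5 red cell markers was 341 to 401 on DOX arrays and 1074 to 1809 on saline arrays, with 2 lower. Smooth muscle markers (5) summed to 2069 to 2980 on DOX arrays and 3563 to 6506 on saline arrays, with 2 of the 4 tested lower. Endothelial markers (6) summed to 3015 to 3895 on DOX arrays and 3797 to 4719 on saline arrays, with 2 lower. The 8 cardiomyocyte markers, which define the labelled tissue, were at or above the array median on at least 1 array each and summed to 104472 to 110667 on DOX arrays and 113716 to 117196 on saline arrays, with 4 lower. Sums of the 7 T and B lymphocyte markers were 483 to 501 on DOX arrays and 507 to 572 on saline arrays. Of these, Cd3g, Cd79a, Cd79b and Ms4a1 never reached the array median, and 0 of the 3 tested passed. No marker was at 0 on all 8 arrays. The part of these markers in the Srsf6 difference was not tested.

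Genes beside Srsf6 on chromosome 2 were followed for comparison. The 3 nearest tested genes on one side were Chd6, Lpin3 and Zhx3, with log2 differences for DOX of 0.17, -0.02 and -0.10, and on the other Ift52, Mybl2 and Tox2, with 0.24, -0.17 and 0.22. None passed the test. When the replicate number entered as a block, Ift52, a protein of cilium assembly, had an adjusted p of 0.0297, against 0.0857 without it.

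Srsf5, an SR protein with a pair of RNA recognition motifs like Srsf6, went the other way. Its 1 probe set, 1423130_a_at, had 1950 and 3294 with MT-/- DOX and 945 and 1302 with MT-/- saline, and 2574 and 1967 with MT+/+ DOX against 921 and 804 with MT+/+ saline. All 4 DOX arrays were above all 4 saline arrays, and MT-/- DOX replicate 2 was the highest. The log2 difference was 1.23 ± 0.17 averaged over the genotypes, 2.35-fold higher, with 1.18 ± 0.24 in MT-/- and 1.29 ± 0.24 in MT+/+.

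Srsf3, a small SR protein that also takes part in mRNA export, had 6 probe sets, of which 5 had a negative difference. 1416151_at had 192 and 81.7 with MT-/- DOX and 282 and 295 with MT-/- saline, and 129 and 117 with MT+/+ DOX against 210 and 243 with MT+/+ saline. Its DOX and saline arrays did not overlap, and the log2 difference averaged over the genotypes was -0.94 ± 0.20. It did not pass the threshold of adjusted p 0.05 without MT-/- saline replicate 1, MT+/+ DOX replicate 2 or MT+/+ saline replicate 2. 1416152_a_at had 167 and 77.4 with MT-/- DOX, 242 and 226 with MT-/- saline, 138 and 108 with MT+/+ DOX and 169 and 175 with MT+/+ saline. That difference was -0.67 ± 0.19, and after normalization the arrays overlapped when both genotypes were pooled.

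The brightest Srsf3 probe set differed less. 1416150_a_at had 927 and 681 with MT-/- DOX and 1086 and 1121 with MT-/- saline. With MT+/+ DOX it had 932 and 684, against 786 and 912 with MT+/+ saline, and its difference was -0.31 ± 0.15. The DOX and saline arrays of that probe set overlapped in MT+/+ and when both genotypes were pooled, but not in MT-/-. 1454993_a_at had -0.55 ± 0.16 and 1434512_x_at, whose ending marks probes similar to other sequences, had -0.30 ± 0.26. The only positive Srsf3 probe set was 1438215_at, with 0.17 ± 0.16.

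Srsf1, the SR protein first known as a factor for constitutive and alternative splicing, had 7 probe sets whose DOX minus saline differences ran between -0.69 and 0.11 with a median of -0.46. Its brightest, 1434972_x_at, had 717 and 480 with MT-/- DOX and 803 and 892 with MT-/- saline. With MT+/+ DOX it had 544 and 569, against 619 and 836 with MT+/+ saline, and its difference was -0.46 ± 0.15. The DOX and saline arrays of that probe set overlapped when both genotypes were pooled, but not within either genotype. The lowest was 1430982_at, with 333 and 161 with MT-/- DOX, 437 and 394 with MT-/- saline, 261 and 237 with MT+/+ DOX and 350 and 419 with MT+/+ saline, and its DOX and saline arrays did not overlap. The 1 positive probe set, 1457136_at, had 153 and 122 with MT-/- DOX, 141 and 113 with MT-/- saline, 145 and 131 with MT+/+ DOX and 147 and 109.7 with MT+/+ saline, a difference of 0.11 ± 0.12.

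The 2 MT-/- DOX arrays differed in Srsf1 and Srsf3. Replicate 2 was below replicate 1 on 7 of 7 Srsf1 probe sets, with a median log2 gap of -0.66, and on 5 of 6 Srsf3 probe sets, with a median of -0.79. On the Srsf3 probe sets replicate 2 was also below replicate 1 on 6 of 6 with MT-/- saline, with a median gap of -0.13. With MT+/+ DOX it was below on 5 of 6, with a median of -0.40. With MT+/+ saline it was below on 2 of 6, with a median of 0.15. For Srsf1 the median gap was -0.07 with MT-/- saline, -0.07 with MT+/+ DOX and 0.25 with MT+/+ saline. The same gap in MT-/- DOX over all tested probe sets had a median of -0.01 and quartiles of -0.18 and 0.16. Its quartiles were -0.14 and 0.14 with MT-/- saline, -0.17 and 0.16 with MT+/+ DOX and -0.16 and 0.17 with MT+/+ saline. The 3′ to 5′ ratio of the beta-actin control, a measure of RNA integrity, was 0.913 on MT-/- DOX replicate 1 and 1.18 on replicate 2. On the other arrays it was 0.948 and 1.05 with MT+/+ DOX and between 1.14 and 1.24 with saline, and the Gapdh ratio was 0.984 to 1.05 on all 8. The part of RNA integrity in these differences was not tested. The median difference averaged over the genotypes was -0.46 for the Srsf1 probe sets with all arrays. It was -0.62 without MT-/- DOX replicate 1 and -0.27 without replicate 2. For the Srsf3 probe sets these medians were -0.43, -0.62 and -0.29.

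**Figure D2:**
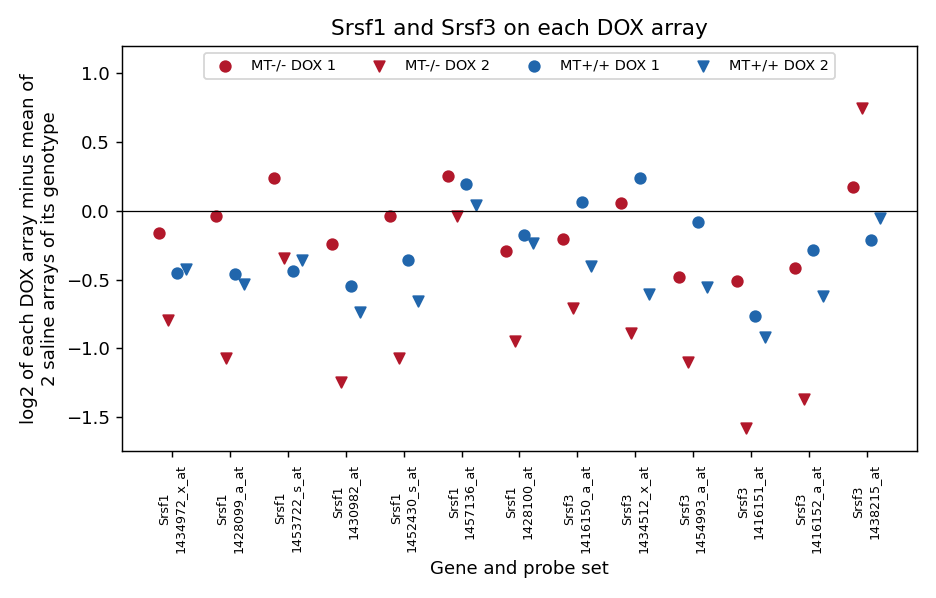
Log2 value of each DOX array minus the mean of the 2 saline arrays of its genotype, for the 7 Srsf1 and 6 Srsf3 probe sets (normalized log2(intensity + 16), 1 point an array, no error bars). MT-/- DOX replicate 2 lies below replicate 1 on all of them but Srsf3 1438215_at.

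The remaining members differed less between DOX and saline. Srsf2, an SR protein needed for heart muscle in the mouse, had 4 probe sets with differences between -0.25 and 0.15. Its brightest, 1427504_s_at, had 699 and 616 with MT-/- DOX, 856 and 989 with MT-/- saline, 955 and 695 with MT+/+ DOX and 686 and 928 with MT+/+ saline. Srsf4, with 1 probe set (1448778_at), had 375 and 456 with MT-/- DOX, 412 and 442 with MT-/- saline, 354 and 384 with MT+/+ DOX and 336 and 349.6 with MT+/+ saline, a difference of 0.02 ± 0.09. In both, the DOX and saline arrays overlapped when both genotypes were pooled. Within MT-/- alone the arrays of Srsf2 1427504_s_at did not overlap.

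Srsf10, an SR-like protein that controls triadin splicing in the mouse heart, had 4 probe sets with differences between -0.30 and 0.19. Its brightest, 1418527_a_at, had 270 and 245 with MT-/- DOX, 244 and 200 with MT-/- saline, 222 and 195 with MT+/+ DOX and 194 and 168 with MT+/+ saline. Of the 4 Srsf11 probe sets, 1430077_at and 1439095_at reached the array median on 1 and 0 arrays and were not tested. 1452371_at had 458 and 473 with MT-/- DOX, 394 and 467 with MT-/- saline, 419.8 and 389 with MT+/+ DOX and 337 and 413 with MT+/+ saline, and the 2 tested Srsf11 probe sets had differences of 0.10 and 0.25. The arrays of DOX and saline hearts overlapped on every tested Srsf10 and Srsf11 probe set when both genotypes were pooled.

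Across the members, 29 of the 31 probe sets passed the filter on dim values, and 5 of them passed adjusted p 0.05 for DOX against saline averaged over the genotypes, where 13.9% of all 24751 tested probe sets did, 7.03% higher and 6.84% lower. They were Srsf6 1416720_at and 1448454_at, Srsf3 1416151_at and 1416152_a_at, all lower, and Srsf5 1423130_a_at, higher. The median difference was -0.22 over the 29 and -0.00 over all tested. In each genotype alone Srsf6 1416720_at and Srsf5 passed, 2 of 29, the first lower and the second higher. Over all tested probe sets 6.21% passed in MT-/- (2.83% higher and 3.38% lower) and 2.48% in MT+/+ (1.22% higher and 1.26% lower). With replicate number blocked the counts were 11 averaged over the genotypes, where 27.1% of all tested probe sets passed, 6 in MT-/- (16.9% of all) and 3 in MT+/+ (11.1% of all). Averaged over the genotypes the block added Srsf1 1434972_x_at, 1428099_a_at, 1430982_at and 1452430_s_at, Srsf3 1454993_a_at and Srsf10 1449121_at, all lower. In MT-/- it added Srsf3 1454993_a_at, 1416151_at and 1416152_a_at and Srsf6 1448454_at, and in MT+/+ Srsf6 1448454_at, all lower. In the fit without the block, 3 passed averaged over the genotypes when MT-/- saline replicate 1, MT+/+ DOX replicate 2 or MT+/+ saline replicate 2 was left out. Since these contrasts chose the members, nothing is read from the counts.

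**Figure D3:**
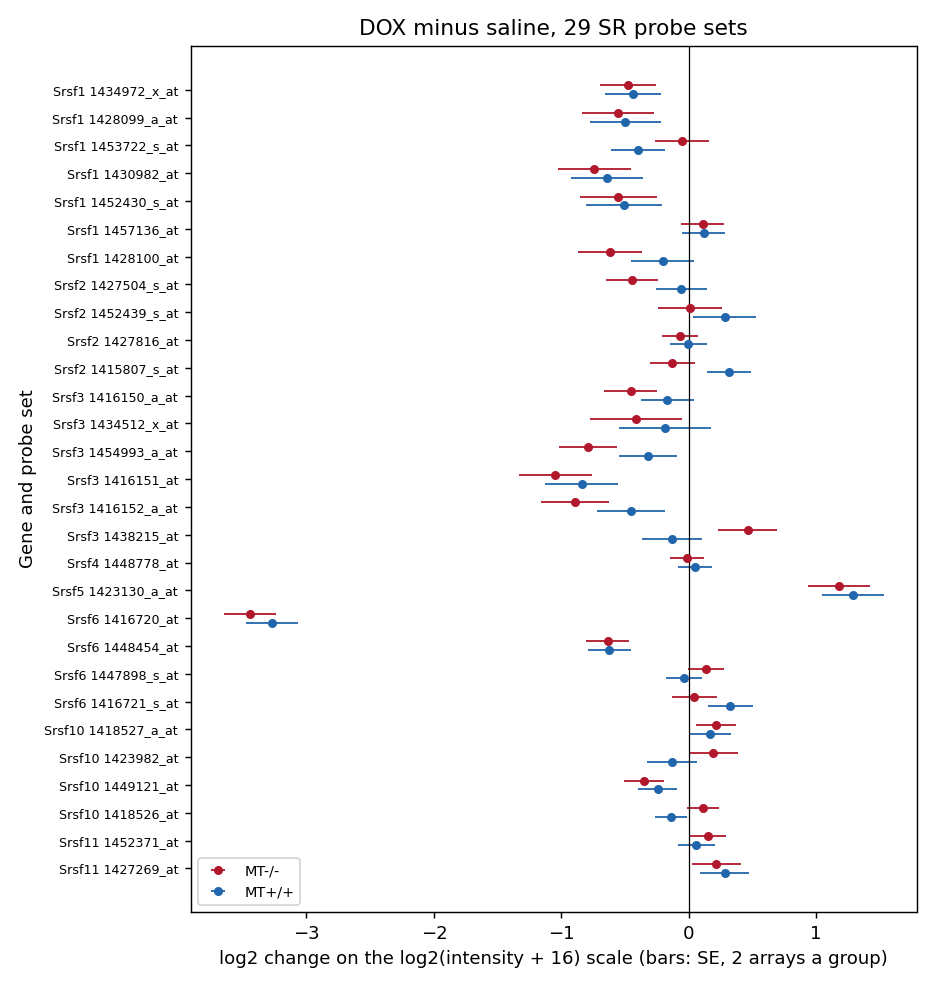
DOX minus saline difference of the 29 tested SR probe sets in MT-/- and MT+/+ hearts, on the normalized log2(intensity + 16) scale, with bars of 1 SE from the limma fit (2 arrays a group). Srsf6 1416720_at stands at -3.44 in MT-/- and -3.27 in MT+/+, and Srsf5 at 1.18 in MT-/- and 1.29 in MT+/+.

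The comparison of MT-/- with MT+/+ hearts asked whether the SR genes differed with the metallothionein genotype. None of the 29 probe sets passed adjusted p 0.05 in limma averaged over the treatments, where 0.905% of all tested probe sets did, and 1 had an unadjusted p under 0.05, as did 13.0% of all tested probe sets. None passed after DOX (0.283% of all) or under saline (0.186% of all), and in both the count at an unadjusted p under 0.05 was 0, where 7.39% of all had one after DOX and 8.62% under saline. With replicate number blocked the 3 counts of members past the threshold were also 0, where 4.86% of all passed averaged over the treatments, 1.55% after DOX and 0.844% under saline. The smallest adjusted p was 0.376, for Srsf10 1418527_a_at, whose MT-/- minus MT+/+ difference was 0.26 (95% interval 0.01 to 0.51). With the replicate block the adjusted p of that probe set was 0.0736. The genotype and interaction intervals given here and below come from the fit without replicate number. They rest on the spread between the 2 arrays of each group, pooled over the 4 groups and adjusted by limma toward that of all tested probe sets.

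For Srsf6 1416720_at the MT-/- minus MT+/+ difference was 0.05 averaged over the treatments (95% interval -0.28 to 0.38, adjusted p = 0.924). The 95% interval was -0.51 to 0.43 after DOX and -0.33 to 0.60 under saline. Averaged over the treatments, 1448454_at had 0.12 (-0.16 to 0.39) and 1447898_s_at had -0.19 (-0.42 to 0.04). The fourth Srsf6 probe set, 1416721_s_at, had 0.18 (-0.10 to 0.47). Over the 4 Srsf6 probe sets the difference ran between -0.10 and 0.11 after DOX and between -0.27 and 0.33 under saline. Srsf5 had 0.17 averaged over the treatments (-0.22 to 0.57, adjusted p = 0.715), and Srsf4 had 0.17 (-0.04 to 0.39, adjusted p = 0.482). Srsf3 1416151_at had 0.17 (-0.29 to 0.63, adjusted p = 0.778) and Srsf1 1434972_x_at had 0.08 (-0.27 to 0.43, adjusted p = 0.877). Over the 29 probe sets the difference lay between -0.19 and 0.32 on the log2 scale, so the genotype was not detected as a difference in any member at 2 arrays a group.

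**Figure D4:**
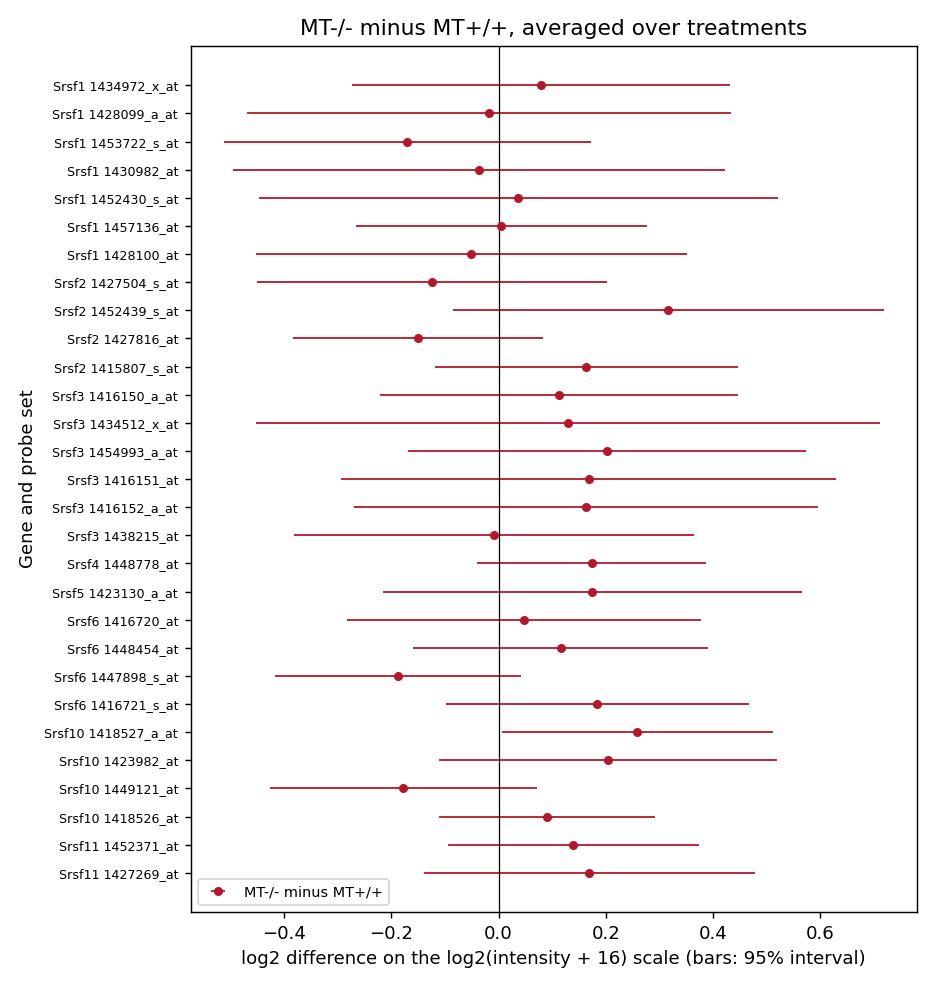
MT-/- minus MT+/+ difference of the 29 tested SR probe sets, averaged over DOX and saline, on the normalized log2(intensity + 16) scale, with bars of the 95% interval from the limma fit. The interval of every probe set but Srsf10 1418527_a_at (0.01 to 0.51) includes 0.

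The difference between the DOX effects of the genotypes, MT-/- minus MT+/+, was tested as an interaction. None of the 29 members passed, 0 had an unadjusted p under 0.05, and of all tested probe sets 0% passed and 2.32% had an unadjusted p under 0.05. It was -0.17 for Srsf6 1416720_at (95% interval -0.83 to 0.49), -0.11 for Srsf5 (-0.89 to 0.67) and -0.21 for Srsf3 1416151_at (-1.13 to 0.72), each with an adjusted p of 0.9995. The widest value among the members was 0.59 for Srsf3 1438215_at (-0.15 to 1.34). Over the 4 Srsf6 probe sets the interaction ran between -0.28 and 0.17. For Srsf6 1416720_at the interval therefore leaves room for a difference between genotypes of up to 0.83 log2 units.

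Genes that work with the SR proteins were followed in lists, each gene by its tested probe set with the highest mean. The lists were chosen with earlier results of these data known, so their DOX calls are given as a description. For DOX averaged over the genotypes 14.8% of all 13008 genes passed in limma, 6.98% higher and 7.81% lower, with a median difference of -0.01. Among 15 other SR and SR-related proteins 1 rose, 1 fell and the median was 0.02. Srsf9, an SR protein close to Srsf1, fell by 0.55 on the log2 scale (adjusted p = 0.0162). It had 212 and 218 with MT-/- DOX, 363 and 383 with MT-/- saline, 209 and 201 with MT+/+ DOX and 226 and 313 with MT+/+ saline. Srrm2, a large scaffold protein of nuclear speckles, rose by 0.50 (adjusted p = 0.0482). The SR-related splicing activators Tra2a and Tra2b had -0.49 (adjusted p = 0.0767) and -0.03 (adjusted p = 0.912).

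Of 10 kinases and import factors of SR proteins 2 rose and 0 fell, with a list median of 0.21. Clk1, a nuclear kinase that phosphorylates the arginine and serine tail, rose by 0.51 (adjusted p = 0.0469), with 684 and 853 with MT-/- DOX, 501 and 698 with MT-/- saline, 587 and 814 with MT+/+ DOX and 373 and 473 with MT+/+ saline. Dyrk1a, another kinase of splicing factors, rose by 0.42 (adjusted p = 0.0432), while its other probe sets had -0.03 and 0.15. Clk4 had 0.67 (adjusted p = 0.114, and 0.00137 with the replicate block), and Srpk1, Srpk2 and Srpk3 had 0.18, 0.05 and -0.09. With the block 4 of the 10 were called higher, where 13.6% of all genes were. Block counts of the other lists are given below.

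The hnRNP proteins bind pre-mRNA and often oppose SR proteins in exon choice. Of 26 tested 3 rose and 1 fell, and the median was 0.01. Hnrnpa1, an antagonist of Srsf1 in splice site choice, rose by 0.77 (adjusted p = 0.0489) on a probe set whose ending marks probes similar to other sequences. It had 398 and 926 with MT-/- DOX, 354 and 395 with MT-/- saline, 521 and 704 with MT+/+ DOX and 309 and 336 with MT+/+ saline. Ptbp2, a splicing repressor best known in neurons, rose by 0.46 (adjusted p = 0.0246) and Hnrnpf by 0.34 (adjusted p = 0.0452). Hnrnpa2b1 fell by 0.54 (adjusted p = 0.0251), and its other probe sets ran between -0.30 and -0.17.

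Of 43 core spliceosome genes 6 rose and 1 fell, with a median of 0.03. Sart1, a protein of the U4/U6.U5 tri-snRNP, rose by 0.96 (adjusted p = 0.00297), with 516 and 785 with MT-/- DOX, 269 and 325 with MT-/- saline, 413 and 523 with MT+/+ DOX and 240 and 257 with MT+/+ saline. Snrnp200, the helicase that unwinds U4 from U6, rose by 0.48 (adjusted p = 0.0144), Usp39, which acts in tri-snRNP recruitment, by 0.37 (adjusted p = 0.0285), and Sf3b2, of the U2 snRNP, by 0.43 (adjusted p = 0.0319). Lsm6, of the ring that binds the end of U6, fell by 0.58 (adjusted p = 0.0144).

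Among 14 other splicing regulators of heart and muscle 1 fell and 0 rose, with a median of -0.00. It was Qk, the RNA-binding protein quaking, which fell by 0.56 (adjusted p = 0.0141) on its brightest probe set while the others ran between -0.68 and 0.23. Rbm20, the regulator of titin splicing, had 0.18 (adjusted p = 0.297). Of 12 genes of the exon junction complex and nonsense-mediated decay 3 rose and 1 fell, and the median was 0.06. Smg1, the kinase of the decay factor Upf1, rose by 0.80 (adjusted p = 0.0453) while its other probe set had 0.05. Of the core parts of the exon junction complex, Rbm8a rose by 0.34 (adjusted p = 0.0352) and Casc3 by 0.33 (adjusted p = 0.0413). The other Rbm8a probe set had -0.35. Smg6, an endonuclease of that decay, fell by 0.50 (adjusted p = 0.0384).

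Of 5 heart genes listed for a reported link to SR proteins, which need not be splicing in each, 3 fell and 0 rose, with a median of -0.48. Trdn, the calcium release protein triadin, fell by 0.53 (adjusted p = 0.0166), Ryr2, the calcium release channel, by 0.50 (adjusted p = 0.0169) and Camk2d, a calcium-dependent kinase, by 0.48 (adjusted p = 0.0162). Camk2d had 385 and 415 with MT-/- DOX, 687 and 635 with MT-/- saline, 439 and 388 with MT+/+ DOX and 475 and 504 with MT+/+ saline. The 5 other Trdn probe sets ran between -0.19 and 0.05. The other Ryr2 probe set had -0.26 and the other Camk2d probe sets ran between -0.27 and -0.16. Ldb3 had -0.21 (adjusted p = 0.285) and Tnnt2 had 0.10 (adjusted p = 0.160) in limma. With the replicate block Ldb3 was called lower (adjusted p = 0.0155) and Tnnt2 higher (adjusted p = 0.0269). Their other probe sets were positive, between 0.35 and 0.62 for Ldb3 and between 0.06 and 1.07 for Tnnt2. Probe set intensities measure transcript amount, and exon inclusion in these genes was not measured. Ryr2 and Tnnt2 are also among the cardiomyocyte markers, whose sums are given above.

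Over all lists 23 of 125 genes passed for DOX averaged over the genotypes, and the count depended on single arrays. It was 3 without MT-/- saline replicate 1, 5 without MT+/+ DOX replicate 2, 7 without MT+/+ saline replicate 1 or MT-/- saline replicate 2, 9 without MT+/+ saline replicate 2 or MT-/- DOX replicate 2, 12 without MT+/+ DOX replicate 1 and 22 without MT-/- DOX replicate 1. Only Sart1 passed whichever array was left out, and the other 22 lost the call without at least 1 array, with adjusted p between 0.0506 and 0.170 there. The share of all genes passing without each array is not given here, so nothing about the lists is read from those counts. With the replicate block 41 of the 125 passed, where 28.3% of all genes did, 13.6% higher and 14.8% lower. The block called 3 higher and 2 lower of 15 other SR and SR-related proteins, and 4 and 0 of 10 kinases and import factors. It called 6 and 3 of 26 hnRNP proteins, 8 and 3 of 43 core spliceosome genes and 1 and 1 of 14 other splicing regulators. Of 12 exon junction and decay genes it called 4 and 1, and of 5 heart genes 1 and 4.

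Within single genotypes the lists gave few calls. In MT-/- hearts after DOX Srsf9 fell by 0.72 (adjusted p = 0.0394), Lsm6 by 0.70 (adjusted p = 0.0450) and Camk2d by 0.66 (adjusted p = 0.0335), and Sart1 rose by 1.07 (adjusted p = 0.0148), where 6.74% of all genes passed, 2.76% higher and 3.98% lower. Each of these 4 calls was lost on leaving out a single array, for 3 to 7 of the 8 arrays, with adjusted p between 0.0540 and 0.297 there. In MT+/+ hearts 0 genes of the lists passed in limma, where 2.68% of all genes did, and 23 of 125 had an unadjusted p under 0.05, as did 17.3% of all genes. With replicate number blocked 12 were higher and 9 lower in MT-/-, where 17.8% of all genes passed, and 12 higher and 7 lower in MT+/+, where 11.8% did. The lists held 0 calls in limma between genotypes, where 0.884% of all genes passed averaged over the treatments, 0.292% after DOX and 0.177% under saline. At an unadjusted p under 0.05 the counts of the 125 were 13 averaged over the treatments, where 13.2% of all genes had one, 5 after DOX (7.72% of all) and 7 under saline (8.65% of all). They also held 0 calls in the interaction, with 1 at an unadjusted p under 0.05, where 2.5% of all genes had one. With the block 1 core spliceosome gene was lower in MT-/- than in MT+/+ averaged over the treatments, where 4.91% of all genes passed.

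**Figure D5:**
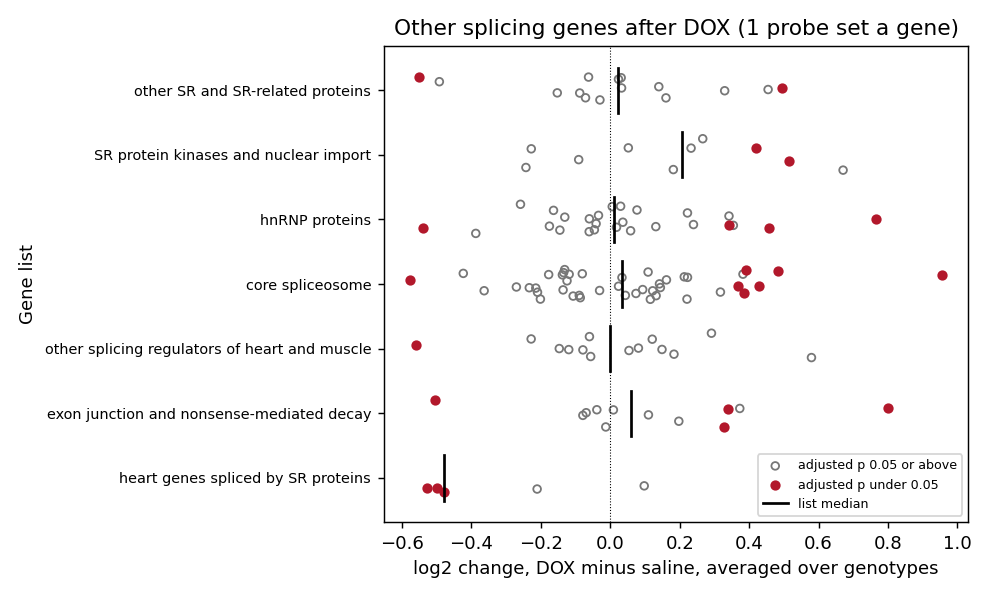
DOX minus saline difference averaged over genotypes for the genes of 7 splicing lists, 1 point a gene by its probe set with the highest mean (log2(intensity + 16) scale). Filled points passed adjusted p 0.05 and bars are list medians, which lie between -0.48 for the 5 heart genes and 0.21 for the kinases.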

How the data were processed

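The deposited values were linear intensities, 1 per probe set and array, made by the authors with GCOS 1.4 per the submitters' processing notes. The sources used here do not name the signal algorithm or its scaling. Of 45101 probe sets 64 controls were left out. Gene symbols came from the platform annotation. Deposited intensities were quantile-normalized and tested as log2(intensity + 16), which understates differences of dim probe sets. The 24751 probe sets at or above the array median on at least 2 of 8 arrays were tested with limma 3.58.1 in R 4.3.3 (4 group means, eBayes with trend, 4 residual and 4.66 prior degrees of freedom), in 7 comparisons. P-values are two-sided and Benjamini-Hochberg adjusted over all probe sets tested, with a threshold of 0.05. The fit was tested on simulated data.

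The members and gene lists were chosen with earlier results of these data known. Values on every array were given for Srsf6, for the brightest probe set of each member and for those past the threshold or at least 0.5 log2 away in sign. In each list up to 4 genes with the smallest p were named in each direction. Srsf1 1430982_at, Tra2a, Tra2b, Clk4, Srpk1, Srpk2, Srpk3, Rbm20, Ldb3 and Tnnt2 were named outside this rule, after their values were seen. Groups and replicate numbers came from the labels. Replicate 2 minus replicate 1 correlated between every pair of groups, at 0.36 to 0.54 over probe sets, so numbers were taken as pairing the arrays, and a fit with the number as a block was made. Standard errors, intervals and calls are from the fit without the block unless the block is named. Other alternatives changed the scaling, pseudocount, filter, trend, groups fitted and probe set rule, or left out each array. A precision limit is the 2 arrays a group.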

Additional observations from a re-analysis of the deposited data

How the results depend on the processing

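No comparison changed direction for a value that had passed the threshold. Among SR probe sets, DOX averaged over the genotypes gave 5 calls, 4 to 7 under the other scalings, pseudocounts, filters and without the trend, 11 with the replicate block and 3 to 11 when each array was left out. DOX in MT-/- gave 2 calls, 1 when fitted on the compared groups alone, 6 with the replicate block and 1 to 10 by arrays left out, where 10 came without MT-/- DOX replicate 1 and 1 without any other MT-/- array. DOX in MT+/+ gave 2 calls, and 1 to 4 by arrays left out, where 4 came without either MT-/- DOX array and 1 without any other. Srsf3 1416152_a_at lost its call for DOX averaged under 4 settings, which were median centring, pseudocount 1, no filter and no trend, and without any single array but MT-/- DOX replicate 1. Srsf3 1416151_at lost it without MT-/- saline replicate 1, MT+/+ DOX replicate 2 or MT+/+ saline replicate 2. Genotype and interaction counts of SR probe sets were 0 under every setting run. The splicing lists gave 23 calls, 14 with no filter on dim probe sets (more probe sets tested), 41 with the replicate block and 3 to 22 by arrays left out. Among the cell type markers the replicate block added Pln, Tnnt2, Dcn and Pecam1 as higher and Slc4a1 as lower for DOX averaged. It changed no call of an SR probe set or splicing list gene beyond those counted here and above. The share of all probe sets passing without each array is not given here, so nothing about the members is read from those counts. The cause of these shifts was not tested. Dim probe sets, such as the 2 untested ones of Srsf11, carry little signal over background.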
